A study of Arabidopsis thaliana with 4 samples.

Results

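Whether the response of the Arabidopsis thaliana root tip to phosphate supply depends on genotype was examined in 2 genotypes, the reference accession Col-0 and the mutant med16-2, in which the affected gene encodes subunit 16 of the Mediator complex. Seedlings of each were sampled 4 days after germination from agar medium with 1 mM phosphate (high phosphate) or 5 µM phosphate (low phosphate). For each locus the log2 ratio of low over high phosphate in Col-0 was subtracted from the same log2 ratio in med16-2, and this value is called the difference below. A positive difference means that the low/high ratio was larger in med16-2, a negative one that it was smaller. All 4 libraries enter it, 1 per group, so no test is possible: the values compare libraries, not conditions, and nothing below has a replicate check. Of 33602 loci in the files, 9306 had no count in any library and 5604 more fell below a mean of 1 CPM (counts per megaread of the scaled library), which left 18692 loci compared.

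Mediator relays signals from transcription factors on DNA to the RNA polymerase II machinery, and MED16 is a subunit of its tail, long known in Arabidopsis as SENSITIVE TO FREEZING 6. Roots short of phosphate switch on a systemic programme, led by the transcription factor PHR1, of phosphate transporters, phosphatases, regulatory RNAs and enzymes that replace phospholipids. The root tip also responds locally to phosphate and iron, through malate release and iron accumulation in the cell walls. The labels do not give the kind of lesion in med16-2 or the number of seedlings per library, and a whole root tip holds many cell types, so that fewer cells of a type and less RNA per cell cannot be told apart.

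MED16 (AT4G04920) had 420 and 747 counts at high and low phosphate in Col-0 and 56 and 48 in med16-2, lower in the mutant at both supplies, and its difference was -0.12 (-0.70 to 0.46). Gene counts per library ran from 10079345 to 15696333; counts are printed as deposited, while every ratio and every statement of which library was highest or lowest uses the scaled level. The library of med16-2 at low phosphate stood apart. Of all counts listed for it, 36.6% were of alignments that were not unique, against 6.65 to 9.27% elsewhere. A read with several alignments may be listed more than once, so this need not be a share of reads. Ribosomal RNA loci took 1.38% of its gene counts against 0.0974 to 0.173%. Because each difference contains that library, the results on organelle and ribosomal RNA loci are given apart from the rest. Markers of the tip were present in every library: the 16 cell cycle genes summed to between 394 and 480.0 scaled CPM, and the 6 root cap genes to between 194 and 249. The 8 reference genes had 0 members past the size rule defined next and a median difference of 0.01, from -0.16 to 0.39; the ends of that range were UBQ10 and ACT2.

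Most loci had a similar phosphate ratio in both genotypes. The median difference was 0.02 and its quartiles were -0.19 and 0.21, with 9771 of 18692 loci above 0. A locus was said to meet the size rule when the difference was at least 2-fold and its 95% interval, which covers counting error only, excluded 0. By this rule 429 loci had a higher difference (2.3% of the loci compared) and 404 a lower one (2.16%), 4.46% in all. At 4-fold or more there were 75 higher and 107 lower. Loci past the rule were more weakly counted than the rest: the median over loci of the mean CPM was 4.65 for the higher set and 3.76 for the lower set, against 20.4 for all loci compared. At the edges of the rule, AT7SL-1 with a difference of 1.00181 was just inside and AT2G25150 with 0.999241 just outside, while AT5G42730 with -1.00056 was just inside and IPMI2 with -0.999936 just outside.

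**Figure D1:**
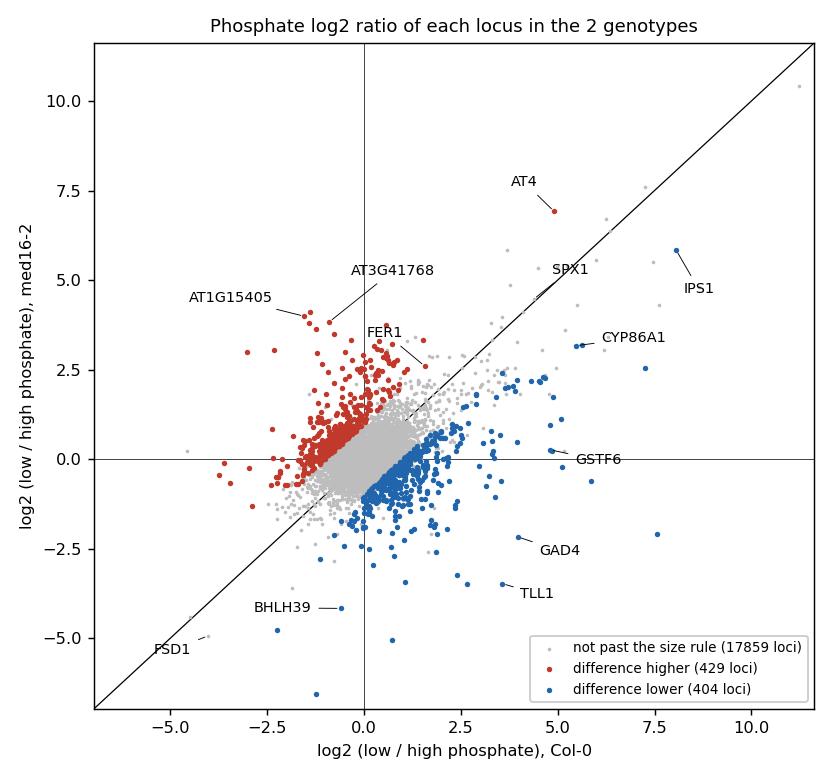
Each point is 1 of 18692 loci, with the log2 ratio of low over high phosphate in Col-0 on the x axis and in med16-2 on the y axis; the diagonal marks equal ratios, and red and blue mark the 429 higher and 404 lower differences. IPS1 and GSTF6 lie below the diagonal, AT4 and FER1 above it, and SPX1, with 4.38 in Col-0 and 4.46 in med16-2, close to it.

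In 208 of the 404 loci with a lower difference the level was higher at low phosphate in Col-0. Of the 404 loci, 160 (39.6%) met the size rule as higher at low phosphate in Col-0 and met it in neither direction in med16-2, 23 were higher in both genotypes, and 25 were higher in Col-0 and lower in med16-2. Another 72 were lower at low phosphate in med16-2 alone, 3 were lower in both, and 121 met the rule for neither single ratio. The 429 higher differences divided otherwise: 115 (26.8%) were lower at low phosphate in Col-0 alone, 110 (25.6%) were higher in med16-2 alone, 15 were lower in Col-0 and higher in med16-2, 5 were higher in both, 1 was lower in both, and 183 met neither rule. The single ratios are built from the same libraries as the difference, so these counts describe how each difference arose and are no separate evidence for it.

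Seen from the responses themselves, 606 loci (3.24%) were higher and 278 (1.49%) lower at low phosphate in Col-0, and 422 (2.26%) were higher and 193 (1.03%) lower in med16-2. The higher sets shared 201 loci, which is 33.2% of the Col-0 set and 47.6% of the med16-2 set. The lower sets shared 44, or 15.8% and 22.8%. Loci that were higher in Col-0 had a median phosphate log2 ratio of 1.49 there and 0.68 in med16-2, and loci that were higher in med16-2 had a median of 1.61 there and 0.92 in Col-0. Each set therefore had the smaller median in the genotype that did not choose it. Of the 606 loci, 208 had a lower and 5 a higher difference. Of the 278, 131 had a higher and 3 a lower difference.

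The systemic phosphate genes as a whole did not share a direction. In the signalling list, 1 of 10 members had a higher and 2 a lower difference, with a median of -0.05, beside the 0.02 of all loci. The transport list had 0 of 7 members past the rule (median 0.30), the scavenging list 0 higher and 1 lower of 9 (-0.09), and the list of membrane lipid remodelling 0 higher and 2 lower of 11 (-0.55, with 9 members below 0). The transport median became -0.06 when its weakly counted members were kept. Among all loci compared 2.3% had a higher and 2.16% a lower difference. Median phosphate log2 ratios in Col-0 and med16-2 were 0.78 and 0.59 for signalling, 1.80 and 2.11 for transport and 1.31 and 1.22 for scavenging. For lipid remodelling they were 1.18 and 0.62, with 7 members higher at low phosphate in Col-0 and 4 in med16-2.

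IPS1 (AT3G09922) and AT4 (AT5G03545) are related non-coding RNAs that bind the microRNA directed against PHO2 transcripts, and their differences had opposite signs. IPS1 had 2 and 1077 counts at high and low phosphate in Col-0 and 7 and 366 in med16-2, and its difference was -2.21 (-4.29 to -0.14), a ratio 4.64-fold smaller in med16-2. AT4 had 185 and 9017 in Col-0 and 19 and 2010 in med16-2, and its ratio was 4.03-fold larger in med16-2 (2.52 to 6.45). Both were lower in med16-2 than in Col-0 at low phosphate, at log2 ratios of -1.18 and -1.79. At high phosphate AT4 was already lower in med16-2, with a log2 ratio of -3.80, whereas IPS1 rested on 2 and 7 counts. PHO2 (AT2G33770), the ubiquitin-conjugating enzyme that limits phosphate uptake, had 880 and 1203 in Col-0 and 1369 and 404 in med16-2. Its ratio was 2.43-fold smaller in med16-2 (2.11 to 2.80): the 2 Col-0 levels were close and the level of med16-2 at low phosphate was the lowest of the 4.

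The other signalling genes did not pass the rule. SPX1, an inhibitor of PHR1, had 198 and 6686 in Col-0 and 114 and 2152 in med16-2, with a difference of 0.09 (-0.25 to 0.43), so a lower level in the mutant at both supplies went with a difference near 0. SPX2 had a difference of -0.39 (-0.68 to -0.09), and SPX3, with 4 and 1 counts at high phosphate, of 0.37 (-2.34 to 3.07). PHR1 itself, its relative PHL1, SPX4 and the ubiquitin ligase gene NLA lay between -0.32 and 0.13.

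Among transport genes, the phosphate transporter gene PHT1;4 (AT2G38940) had 290 and 4453 in Col-0 and 316 and 2050 in med16-2, a difference of -0.32 (-0.56 to -0.07). PHT1;1 and PHT1;2, near-identical copies that can share reads, had differences of 0.30 and 0.34, the latter on 3 and 2 counts at high phosphate. The exporter gene PHO1 had -0.09, its homologue PHO1;H1 0.31, the trafficking gene PHF1 -0.22 and the glycerol-3-phosphate transporter gene G3PP1 0.45. All 7 members thus fell between -0.32 and 0.45.

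Among scavenging genes, RNS1 (AT2G02990), a secreted ribonuclease gene, had 97 and 928 counts at high and low phosphate in Col-0 and 34 and 80 in med16-2. It rose at low phosphate in both genotypes, and its ratio was 2.15-fold smaller in med16-2 (1.37 to 3.37). The pyrophosphatase gene PS2 had 143 and 2528 in Col-0 and 197 and 937 in med16-2 and, at -0.96 (-1.29 to -0.64), stayed short of 2-fold. The 6 purple acid phosphatase genes measured (PAP10, PAP12, PAP17, PAP22, PAP24 and PAP26) had differences from -0.28 to 0.43, and the phosphatase gene PECP1 one of -0.43.

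The lipid remodelling genes, whose products replace phospholipids with galactolipids and sulfolipids, were the phosphate list with the lowest median. PLDZ2 (AT3G05630), a phospholipase D gene, had 101 and 552 counts at high and low phosphate in Col-0 and 166 and 194 in med16-2, and its ratio was 2.45-fold smaller in med16-2 (1.82 to 3.29). Without strand its reads cannot be told apart from those of the overlapping AT3G05640, which also had a lower difference. MGD3 (AT2G11810), a galactolipid synthase gene, had 65 and 423 in Col-0 and 96 and 142 in med16-2, 2.30-fold (1.60 to 3.32) smaller. For both genes the 2 high phosphate levels were close and Col-0 at low phosphate was the highest of the 4 libraries. SQD1 and SQD2 of sulfolipid synthesis had differences of -0.84 (-1.18 to -0.49) and -0.55 (-0.67 to -0.42), GDPD1 of -0.68 (-1.07 to -0.28), DGD1 of -0.63 and PAH1 of -0.48 (-0.71 to -0.25), none of them 2-fold. The phospholipase C gene NPC4 and the galactolipid synthase gene MGD2 had differences of 0.00 (-1.44 to 1.45) and 0.20 (-0.28 to 0.68). DGD2 and GDPD5 were at -0.27 and -0.04.

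The binding site of PHR1, called P1BS, is written GNATATNC and reads the same on both strands. In windows from 250 bases before to 50 bases after each annotated start (RefSeq, TAIR10.1), it stood in 8 of 11 lipid remodelling windows (72.7%), 4 of 9 scavenging windows (44.4%), 3 of 10 signalling windows (30.0%) and 2 of 7 transport windows (28.6%), against 6.09% of all windows. The loci higher at low phosphate in both genotypes had it in 36 of 196 windows (18.4%). Where the response was higher in Col-0 and the difference lower, 18 of 208 windows held it (8.65%). Among all lower differences the share was 29 of 404 (7.18%), and among higher differences 22 of 399 (5.51%), close to the 6.22% of loci compared. A match is a description of the letters in the window, not of a bound site.

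The windows of 7 phosphate genes are shown because these genes span the range of differences: AT4 was higher, IPS1, PLDZ2 and RNS1 lower, and NPC4, MGD2 and GDPD1 met the rule in neither direction. Capitals mark each P1BS match, and each window is written 5′ to 3′ on the strand of the gene. They lie at AT4 (chr5:894332-894631, plus strand), IPS1 (chr3:3050739-3051038, plus strand), PLDZ2 (chr3:1634944-1635243, plus strand), RNS1 (chr2:873256-873555, plus strand), NPC4 (chr3:845047-845346, minus strand), MGD2 (chr5:6896213-6896512, plus strand) and GDPD1 (chr3:349961-350260, minus strand).
AT4: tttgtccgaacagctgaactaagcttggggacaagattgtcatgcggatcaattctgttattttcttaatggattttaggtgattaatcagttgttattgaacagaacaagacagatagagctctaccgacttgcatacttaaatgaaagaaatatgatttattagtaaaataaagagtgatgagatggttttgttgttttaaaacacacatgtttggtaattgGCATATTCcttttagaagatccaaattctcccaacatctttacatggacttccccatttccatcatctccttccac
IPS1: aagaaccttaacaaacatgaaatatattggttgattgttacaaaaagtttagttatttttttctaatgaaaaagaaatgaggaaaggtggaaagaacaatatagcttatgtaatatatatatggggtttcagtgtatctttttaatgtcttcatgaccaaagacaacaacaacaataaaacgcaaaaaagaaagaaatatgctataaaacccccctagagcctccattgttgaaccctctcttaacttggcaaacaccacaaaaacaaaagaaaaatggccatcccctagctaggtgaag
PLDZ2: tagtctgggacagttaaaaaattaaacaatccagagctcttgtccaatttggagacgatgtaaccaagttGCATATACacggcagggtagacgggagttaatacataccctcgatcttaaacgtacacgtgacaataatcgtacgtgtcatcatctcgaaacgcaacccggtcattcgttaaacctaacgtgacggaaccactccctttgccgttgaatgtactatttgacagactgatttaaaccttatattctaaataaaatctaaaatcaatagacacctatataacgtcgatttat
RNS1: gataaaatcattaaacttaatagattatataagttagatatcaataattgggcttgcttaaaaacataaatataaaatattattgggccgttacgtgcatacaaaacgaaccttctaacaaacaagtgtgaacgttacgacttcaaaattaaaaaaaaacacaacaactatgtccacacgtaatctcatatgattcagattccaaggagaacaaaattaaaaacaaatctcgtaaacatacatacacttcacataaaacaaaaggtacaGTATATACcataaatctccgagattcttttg
NPC4: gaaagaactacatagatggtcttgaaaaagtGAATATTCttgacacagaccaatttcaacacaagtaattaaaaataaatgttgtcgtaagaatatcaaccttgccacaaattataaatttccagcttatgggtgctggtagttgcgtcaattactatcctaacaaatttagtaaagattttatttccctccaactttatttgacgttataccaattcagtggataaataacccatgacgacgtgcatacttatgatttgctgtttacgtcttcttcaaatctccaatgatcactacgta
MGD2: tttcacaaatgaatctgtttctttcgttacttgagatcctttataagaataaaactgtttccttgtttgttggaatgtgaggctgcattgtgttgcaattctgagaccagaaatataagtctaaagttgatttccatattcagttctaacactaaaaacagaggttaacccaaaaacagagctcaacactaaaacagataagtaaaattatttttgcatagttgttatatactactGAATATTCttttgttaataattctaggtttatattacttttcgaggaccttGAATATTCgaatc
GDPD1: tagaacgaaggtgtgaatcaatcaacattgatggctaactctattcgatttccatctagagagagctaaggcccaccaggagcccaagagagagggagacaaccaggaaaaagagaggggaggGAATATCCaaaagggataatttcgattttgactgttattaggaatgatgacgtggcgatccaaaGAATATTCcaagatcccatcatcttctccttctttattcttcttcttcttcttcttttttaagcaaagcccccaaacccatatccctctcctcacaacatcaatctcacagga
The match began 26 bases before the start in AT4, 180 in PLDZ2 and 219 in NPC4, and 127 and 63 bases before it in GDPD1. In MGD2 one match began 14 bases before the start and one 37 bases after it, and in RNS1 the match began 19 bases after it. The IPS1 window held none of these letters. Matches thus stood in windows of genes with higher, lower and uncalled differences alike.

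**Figure D2:**
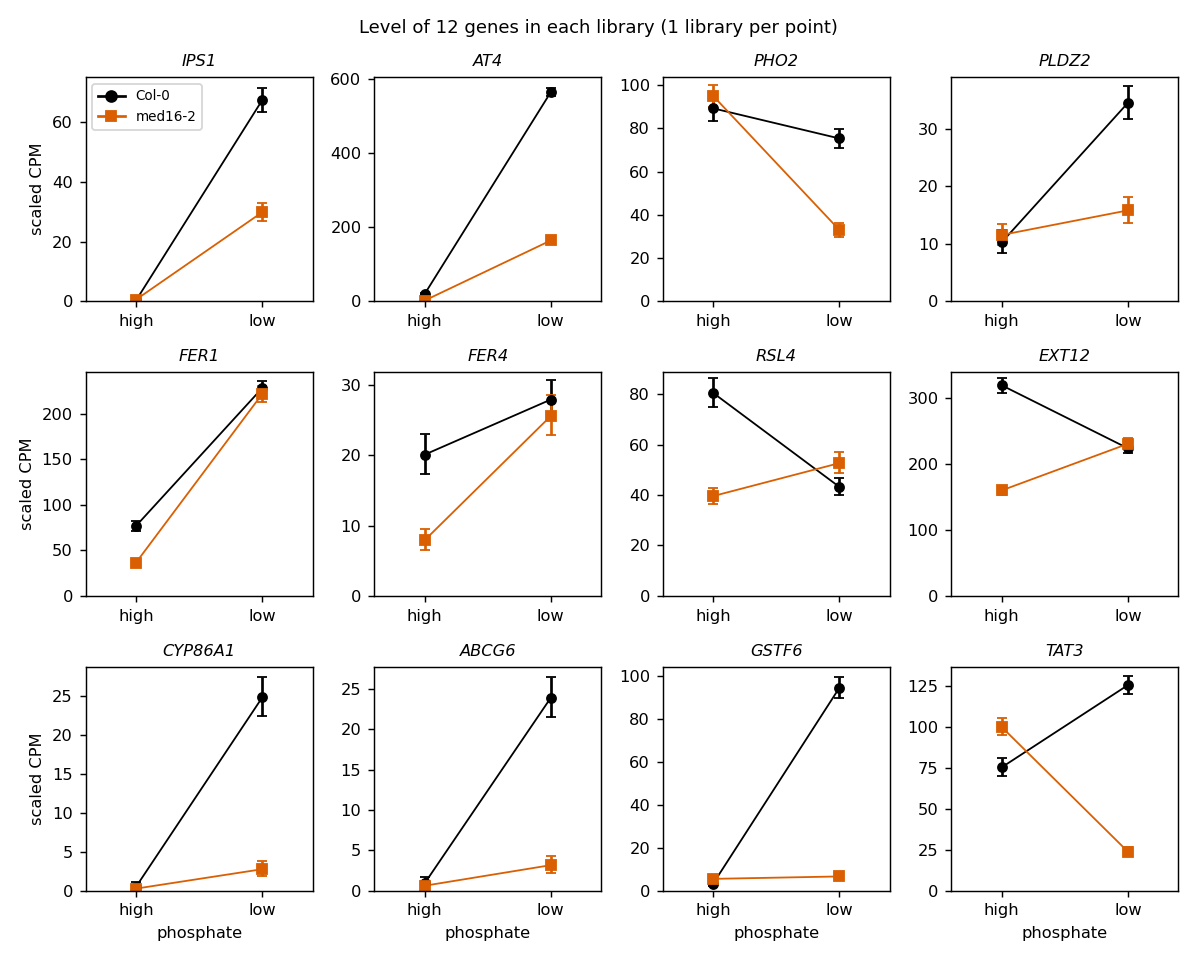
Scaled CPM (y axis, from 0) of 12 genes at high and low phosphate (x axis) in Col-0 (black circles) and med16-2 (orange squares), 1 library per point, with 95% Poisson intervals that cover counting error only. IPS1, AT4, PLDZ2, CYP86A1, ABCG6 and GSTF6 were highest in Col-0 at low phosphate, the ferritin genes were lowest in med16-2 at high phosphate, and PHO2 and TAT3 were lowest in med16-2 at low phosphate.

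Among genes of local phosphate sensing and aluminium tolerance, 1 of 13 members had a lower and 0 a higher difference, with a median of 0.05 that turned to -0.03 both when libraries were scaled by total counts and when weakly counted members were kept. The member was PGIP2 (AT5G06870), an inhibitor of pectin-degrading enzymes, with 24 and 121 in Col-0 and 17 and 17 in med16-2. ALMT1 (AT1G08430), the malate channel of this pathway, had 421 and 3151 in Col-0 and 257 and 1578 in med16-2. Its ratio was 1.56-fold larger in med16-2 (1.32 to 1.84), under the 2-fold of the rule. LPR1, a ferroxidase gene of the same pathway, and AT1G51340, a MATE efflux gene, had differences of 0.61 (-0.02 to 1.24) and 0.82 (-0.32 to 1.96).

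Iron storage genes had larger phosphate ratios in med16-2. All 7 measured members had a difference above 0, with a median of 1.03. Past the size rule as higher were 3, against 2.3% of all loci compared. In Col-0 2 of the 7 were higher at low phosphate, in med16-2 6 of 7, with median phosphate log2 ratios of 0.53 in Col-0 and 1.48 in med16-2. The genotypes lay further apart at high phosphate: the median log2 ratio of med16-2 over Col-0 was -1.08 at high and -0.08 at low phosphate, with 5 members lower in the mutant at high and 1 at low phosphate. Ferritins, the plastid proteins that store iron, made up the 3. FER1 (AT5G01600) had 757 and 3644 counts at high and low phosphate in Col-0 and 526 and 2720 in med16-2, and its ratio was 2.04-fold larger in med16-2 (1.81 to 2.31). FER2 (AT3G11050) had 150 and 223 in Col-0 and 88 and 183 in med16-2, 2.66-fold (1.91 to 3.68) larger. FER4 (AT2G40300) had 198 and 446 in Col-0 and 114 and 314 in med16-2, 2.32-fold (1.77 to 3.05) larger. In all 3 genes the low phosphate levels of the genotypes were close and med16-2 at high phosphate was the lowest library. They overlap AT5G01595, AT3G11040 and AT2G40290 in turn, whose reads cannot be told apart from theirs where they overlap. FER3 had a difference of 0.64 (0.49 to 0.80), and the vacuolar iron transporter-like genes VTL1, VTL2 and VTL5 had 0.79, 1.07 and 0.89.

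Of 14 measured iron uptake genes 4 had a lower and 0 a higher difference, against 2.16 and 2.3% of all loci compared. The list had a median of -0.03. The median was -0.85 when members below the filter on low counts were kept. IRT1 (AT4G19690), the root iron transporter, had 51 and 17 counts at high and low phosphate in Col-0 and 79 and 2 in med16-2. BHLH39 (AT3G56980), a regulator of iron uptake, had 29 and 31 in Col-0 and 52 and 2 in med16-2. The library of med16-2 at low phosphate was the lowest for both, at 2 counts, and their ratios were 5.68-fold (1.44 to 22.4) and 11.8-fold (3.01 to 46.1) smaller in the mutant. OPT3 (AT4G16370), a transporter of the phloem that carries iron, had 77 and 88 in Col-0 and 231 and 36 in med16-2, a difference of -1.93 (-2.60 to -1.26). Its level was highest in med16-2 at high phosphate. NAS2 (AT5G56080), which makes the metal chelator nicotianamine, had 40 and 132 in Col-0 and 41 and 26 in med16-2, and rose in Col-0 alone by the size rule. The other 10 members had differences between -0.97 and 0.41.

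FSD1, the iron superoxide dismutase gene, was lower at low phosphate in both genotypes, with 1323 and 132 in Col-0 and 267 and 7 in med16-2, and its difference of -0.91 (-1.99 to 0.17) did not pass the rule. Nor did any of the other 5 genes of superoxide and copper handling (median -0.19).

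The median phosphate ratio of root hair genes had opposite signs in the 2 genotypes. Of 24 measured members 23 had a difference above 0, with a median of 0.80 and a range of -0.08 to 1.38. The median phosphate log2 ratio was -0.39 in Col-0 and 0.48 in med16-2, and 0 members met the size rule for either single ratio. The list summed to 4792 and 3606 in Col-0 and 2297 and 3183 in med16-2 scaled CPM at high and low phosphate. At high phosphate 12 members were lower in med16-2 than in Col-0 and at low phosphate 0, with median genotype log2 ratios of -1.01 at high and -0.12 at low phosphate. Past the rule for the difference were 4 of 24 members, all higher, against 2.3% of all loci compared. RSL4 (AT1G27740), the transcription factor that sets root hair growth, had 793 and 690 counts at high and low phosphate in Col-0 and 570 and 646 in med16-2, a ratio 2.48-fold larger in med16-2 (2.13 to 2.88). AT5G43175, a further basic helix-loop-helix gene, had 124 and 144 in Col-0 and 72 and 115 in med16-2, 2.61-fold (1.79 to 3.81) larger. The wall protein gene EXT12 (AT4G13390) had 3142 and 3568 in Col-0 and 2301 and 2826 in med16-2, 2.06-fold (1.91 to 2.21) larger, and RHS18 (AT5G22410) had 2301 and 2718 in Col-0 and 1431 and 1877 in med16-2, 2.11-fold (1.93 to 2.31) larger. The member below 0 was RSL2 at -0.08, with 136 and 345 in Col-0 and 121 and 153 in med16-2; it was named after its value was seen.

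**Figure D3:**
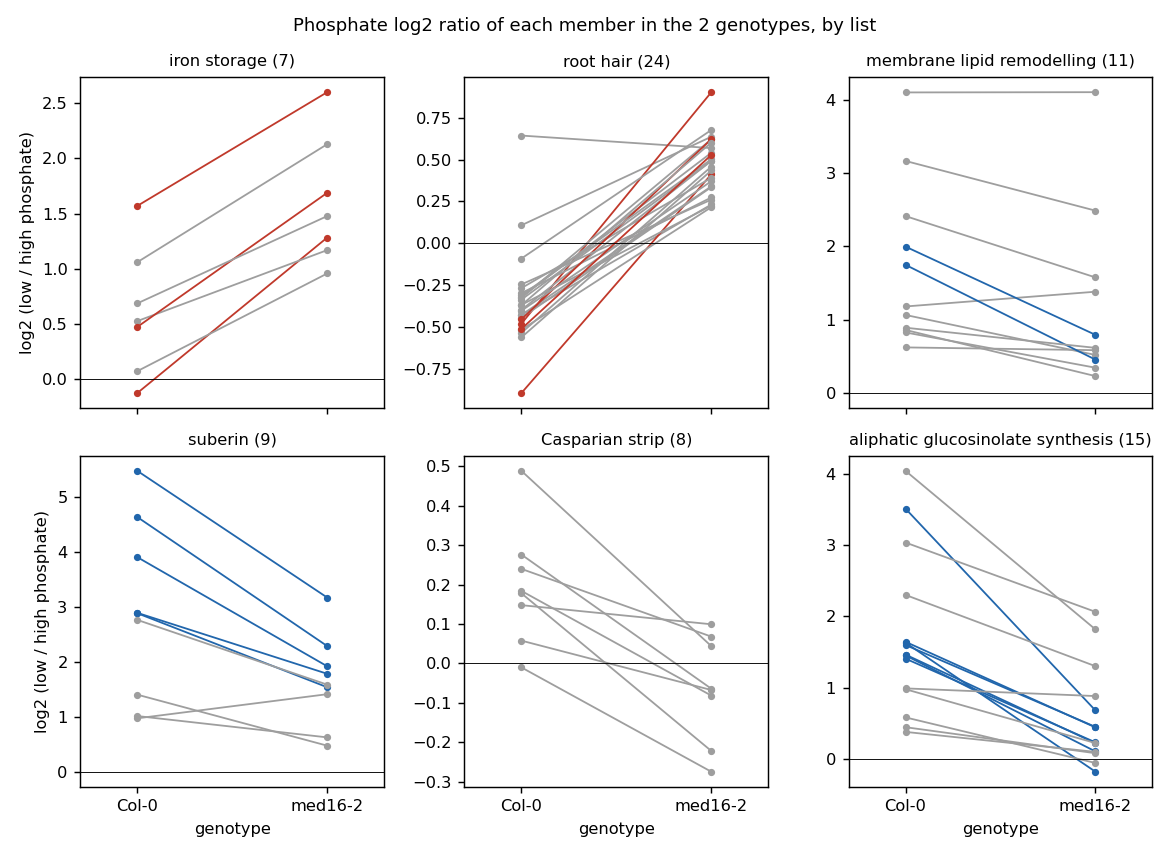
Each line is 1 gene and joins its log2 ratio of low over high phosphate in Col-0 (left) to that in med16-2 (right); red and blue lines are members with a higher or lower difference, the number of members compared stands in brackets, and the y axes differ between panels. All 7 iron storage lines and 23 of 24 root hair lines run upwards, and all 8 Casparian strip and all 15 glucosinolate lines run downwards; the glucosinolate list was drawn up after its values were seen.

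Lists of other tissues of the tip had 0 or 1 members past the rule, which 4.46% of all loci compared passed. Counts this small do not set these lists apart. Of the 11 stem cell niche genes 0 were past the rule, although 10 lay below 0 and the median was -0.51. The median phosphate log2 ratio of the list was 0.48 in Col-0 and 0.01 in med16-2. WOX5 (AT3G11260), the transcription factor gene of the quiescent centre, had 5 and 56 counts at high and low phosphate in Col-0 and 5 and 7 in med16-2, and the interval of its difference, -1.99 (-4.01 to 0.04), reached past 0. BBM, AGL42 and PLT3 had -0.97 (-1.57 to -0.37), -0.96 (-1.48 to -0.45) and -0.68 (-0.90 to -0.45), and PLT1, at 0.60 and named after its value was seen, was the member above 0. The cell cycle list had 0 of 16 members past the rule (median -0.06), the root cap list 0 of 6 (0.25) and the xylem list 0 of 12 (0.21). The phloem list had 1 of 7 members lower and a median of -0.44. That member was NAC086, a transcription factor gene of sieve element maturation, with 19 and 55 in Col-0 and 54 and 40 in med16-2 and a difference of -1.01.

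Suberin genes had the lowest median of the 26 lists, -1.18. Of 9 measured members 5 had a lower and 0 a higher difference, against 2.16 and 2.3% of all loci compared. Suberin is the waxy wall polymer of the mature endodermis. In Col-0 8 of the 9 were higher at low phosphate and in med16-2 6 of 9, with median phosphate log2 ratios of 2.88 in Col-0 and 1.58 in med16-2, so most members responded in both genotypes, with the smaller median in the mutant. ABCG6 (AT5G13580), a transporter of suberin precursors, had 9 and 382 counts at high and low phosphate in Col-0 and 9 and 39 in med16-2, a ratio 5.09-fold smaller in med16-2 (1.96 to 13.3). CYP86A1 (AT5G58860), a fatty acid hydroxylase gene, had 5 and 396 in Col-0 and 4 and 34 in med16-2, 4.94-fold (1.36 to 18.0) smaller. The fatty alcohol genes FAR4 and FAR5 had 5 and 133 in Col-0 and 4 and 14 in med16-2, and 15 and 185 in Col-0 and 9 and 23 in med16-2, and the lower ends of their intervals were 1.02-fold. For each of these the high phosphate libraries held 15 counts or fewer, and Col-0 at low phosphate stood far above the other 3 libraries. CYP86B1, a second hydroxylase gene, was the fifth member, with a difference of -1.11. The list summed to 85.4 and 254 in Col-0 and 59.9 and 103 in med16-2 scaled CPM.

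Casparian strip genes, of a younger stage of the same cell layer, had 0 of 8 members past the rule. All 8 differences lay below 0, from -0.45 to -0.05, with a median of -0.27. The transcription factor gene MYB36 had 323 and 735 in Col-0 and 385 and 338 in med16-2, with -0.45 (-0.73 to -0.16).

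The 15 largest lower differences at a mean CPM of 5 or more included 2 glutathione S-transferase genes, 1 peroxidase gene and 1 chitinase gene. Of all 50 class III peroxidase genes compared 5 had a higher and 5 a lower difference (median -0.04), and of all 17 chitinase genes 0 and 3 (median 0.01). Among all loci compared 2.3% had a higher and 2.16% a lower difference. The peroxidase shares were larger than these in both directions, and the chitinase share was larger for lower differences alone, although both family medians lay near 0. The glutathione S-transferase gene GSTF6 (AT1G02930) had 33 and 1510 counts at high and low phosphate in Col-0 and 80 and 82 in med16-2, and its ratio was 23.1-fold smaller in med16-2 (14.6 to 36.6). Its relative GSTF7 (AT1G02920) had 32 and 469 in Col-0 and 98 and 50 in med16-2, 14.8-fold (9.06 to 24.2) smaller. The peroxidase gene AT5G39580 had 114 and 940 in Col-0 and 306 and 108 in med16-2, 12.2-fold (9.11 to 16.3) smaller. For GSTF6, GSTF7 and AT5G39580 the log2 ratio of med16-2 over Col-0 was 0.72, 1.05 and 0.87 at high phosphate and -3.81, -2.84 and -2.74 at low phosphate, so the sign of the genotype ratio turned with the supply. WRKY48, a transcription factor gene, had 25 and 325 in Col-0 and 71 and 53 in med16-2, and the chitinase gene AT2G43620 had 19 and 931 in Col-0 and 20 and 58 in med16-2. The chitinase gene rose at low phosphate in both genotypes, WRKY48 in Col-0 alone.

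In others of these 15 loci the response of med16-2 was a fall. TAT3 (AT2G24850), a jasmonate-responsive tyrosine aminotransferase gene, had 742 and 2003 counts at high and low phosphate in Col-0 and 1438 and 292 in med16-2, a difference of -2.80 (-3.02 to -2.58). BCB (AT5G20230), a blue copper protein gene, had 114 and 526 in Col-0 and 109 and 36 in med16-2, 7.25-fold (4.74 to 11.1) smaller. MSRB8, a methionine sulfoxide reductase gene, had 107 and 328 in Col-0 and 315 and 89 in med16-2. AT2G26380 (leucine-rich repeat family), AT1G78210 (hydrolase family) and AT4G37710 (VQ motif) were, like TAT3 and MSRB8, lower at low phosphate in med16-2 and not past the rule in Col-0. Their differences were -2.72, -2.51 and -2.62. The remaining 4, AT5G22580, AT5G09480, sks9 and AT1G32970, were higher in Col-0 alone, with differences of -3.10, -2.80, -2.69 and -2.52; the last overlaps AT1G32960.

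The defence list had 4 of 11 members with a lower and 1 with a higher difference, against 2.16 and 2.3% of all loci compared. Its median was -0.48. LOX3 (AT1G17420), of jasmonate synthesis, had 180 and 501 counts at high and low phosphate in Col-0 and 138 and 62 in med16-2, a ratio 3.24-fold smaller in med16-2 (2.30 to 4.56). ERF1 (AT3G23240), an ethylene and jasmonate response factor, had 12 and 35 in Col-0 and 14 and 4 in med16-2, 4.81-fold (1.39 to 16.6) smaller, and the chitinase gene CHI-B (AT3G12500) had 32 and 206 in Col-0 and 48 and 62 in med16-2, 2.59-fold (1.53 to 4.39) smaller. The jasmonate repressor gene JAZ10 had 755 and 1353 in Col-0 and 756 and 331 in med16-2. In these 4 Col-0 at low phosphate was the highest library. WRKY70, a factor of salicylate responses, was the member in the other direction at 1.31, with 90 and 69 in Col-0 and 88 and 88 in med16-2.

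Auxin response genes gave 2 lower and 0 higher differences among 13 members (median -0.51), against 2.16 and 2.3% of all loci compared. GH3.3 (AT2G23170), which conjugates auxin, had 3 and 53 counts at high and low phosphate in Col-0 and 36 and 22 in med16-2, a ratio 13.0-fold smaller in med16-2 (3.92 to 43.4). IAA5 (AT1G15580), an early auxin-induced repressor gene, had 13 and 55 in Col-0 and 40 and 27 in med16-2, 3.18-fold (1.48 to 6.85) smaller. Both were lowest in Col-0 at high phosphate and highest in Col-0 at low phosphate, with the 2 libraries of med16-2 between. PUCHI of lateral root initiation had 8 and 38 in Col-0 and 7 and 5 in med16-2 and an interval reaching past 0, -1.70 (-3.61 to 0.22), and IAA19 had -0.68 (-1.09 to -0.27).

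Genes of light responses and flavonol synthesis had the opposite pattern, a fall in Col-0 that was smaller in med16-2. Of 11 members 5 had a higher and 0 a lower difference, against 2.3 and 2.16% of all loci compared, with a list median of 0.73. In Col-0 8 were lower at low phosphate, in med16-2 3, with median phosphate log2 ratios of -1.57 in Col-0 and -0.50 in med16-2. UGT84A1 (AT4G15480), a sinapate glucosyltransferase gene that overlaps AT4G15475, had 274 and 40 counts at high and low phosphate in Col-0 and 6 and 3 in med16-2, a ratio 6.94-fold larger in med16-2 (1.82 to 26.5). The early light-induced protein gene ELIP1 (AT3G22840) had 565 and 190 in Col-0 and 95 and 57 in med16-2, 3.40-fold (2.36 to 4.90) larger, and ELIP2 (AT4G14690) had 334 and 73 in Col-0 and 70 and 24 in med16-2, 3.01-fold (1.78 to 5.08) larger. The flavonoid hydroxylase gene F3'H and the flavonol regulator gene MYB12 were the other two, at 1.78 and 1.37. The list summed to 1772 and 835 in Col-0 and 206 and 149 in med16-2 scaled CPM, so the mutant started from a lower level. CHS, the first enzyme of the pathway and named after its values were seen, had 10910 and 9819 in Col-0 and 1438 and 953 in med16-2, a difference of 0.49 (0.36 to 0.61).

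Photosynthetic genes, markers of shoot tissue, summed to 297 and 265 in Col-0 and 30.0 and 39.7 in med16-2 scaled CPM. Of 15 members 3 had a higher difference and 0 a lower one, against 2.3 and 2.16% of all loci compared, with a list median of 0.81. RCA (AT2G39730), the Rubisco activase gene, had 394 and 412 in Col-0 and 56 and 82 in med16-2, a ratio 2.66-fold larger in med16-2 (1.84 to 3.83). The light-harvesting genes LHB1B2 and LHCB3 were at 1.26 and 1.06, and LHCB1 copies can share reads. RBCS1A had 108 and 65 in Col-0 and 0 and 1 in med16-2 and LHCA2 39 and 82 in Col-0 and 1 and 0 in med16-2; on so few counts the 95% intervals of their differences, -1.40 to 7.88 and -6.37 to 2.93, spanned 0. The summed level of these markers moved with genotype, and its part in the other differences was not tested.

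The cold list had 3 of 11 members with a higher and 0 with a lower difference, against 2.3 and 2.16% of all loci compared. Its median was 0.31. CBF1 (AT4G25490), a transcription factor gene of cold acclimation, had 21 and 18 counts at high and low phosphate in Col-0 and 2 and 11 in med16-2, a ratio 10.2-fold larger in med16-2 (2.26 to 45.7) on few counts. The membrane protein gene COR414-TM1 had 40 and 24 in Col-0 and 26 and 32 in med16-2, and the galactinol synthase gene GOLS3 115 and 129 in Col-0 and 43 and 58 in med16-2. In these 3 med16-2 was lower than Col-0 at high phosphate by the size rule and not at low phosphate. The dehydrin and cold-regulated genes COR47, RD29A, KIN2 and ERD10, named after their values were seen, had differences between -0.18 and 0.31, although 10 of the 11 genes were lower in the mutant at high phosphate. Heat shock genes had 0 of 6 members past the rule and a median of -0.16; HSP90.1 had 141 and 956 in Col-0 and 302 and 944 in med16-2.

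Other nutrient genes gave single members. In the nitrate and ammonium list, NRT2.1 (AT1G08090), a high-affinity nitrate transporter gene, had 18 and 38 in Col-0 and 4 and 21 in med16-2 and a higher difference of 2.13 (0.46 to 3.80). The ammonium transporter gene AMT1;1 had 8 and 20 in Col-0 and 40 and 15 in med16-2 and a lower difference of -1.73 (-3.16 to -0.30). The overlapping AT4G13505 matches 98.4% of the AMT1;1 transcript at 100% identity. Reads of that stretch cannot be told apart without strand, so the value may not describe the whole transcript. The list median was 0.06. In the sulfate list, SULTR1;1 (AT4G08620), a high-affinity sulfate transporter gene, had 369 and 244 in Col-0 and 261 and 186 in med16-2, 2.05-fold (1.60 to 2.63) larger, with 1 of 6 members higher and a median of 0.03. Scaling by total counts turned the sign of both medians and of the reference median. The 15 genes of other Mediator subunits had 0 members past the rule, differences from -0.31 to 0.27 and a median of -0.15.

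**Figure D4:**
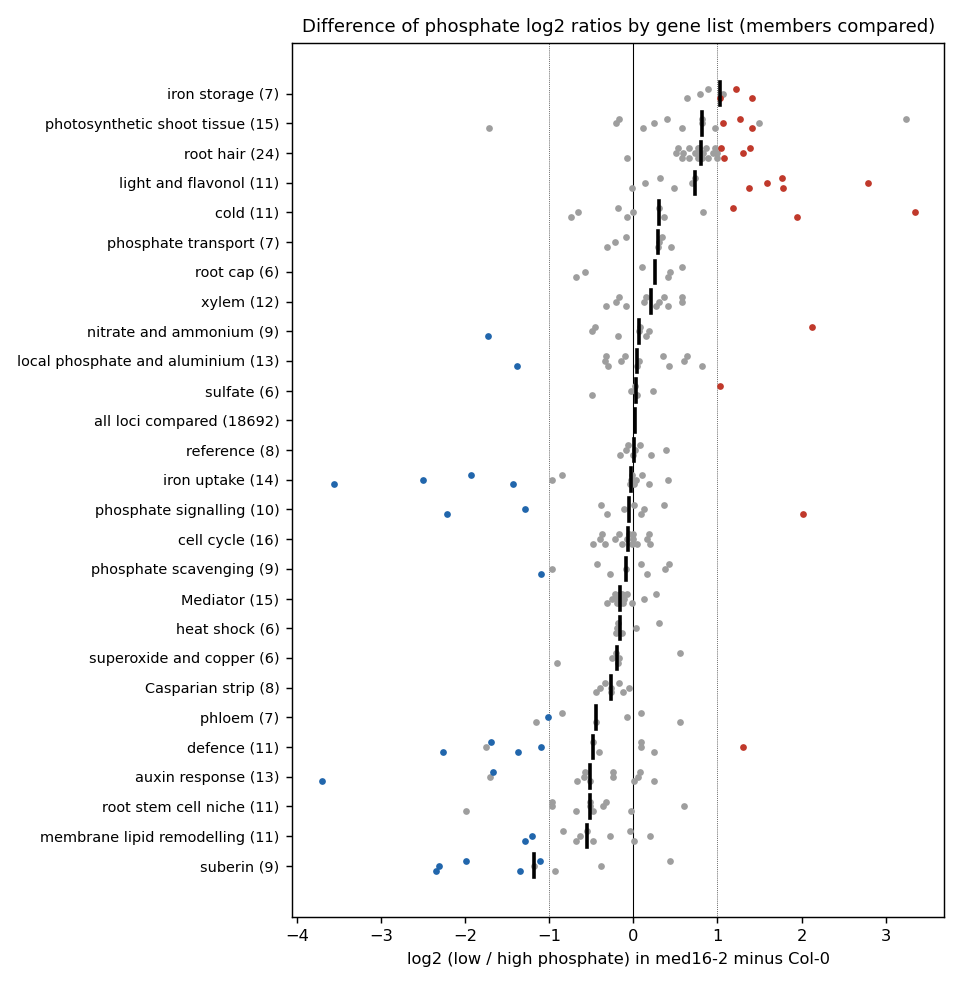
The difference (x axis, log2 ratio of low over high phosphate in med16-2 minus Col-0) of each member of the 26 lists, with the number compared in brackets; black bars are medians, red and blue points meet the size rule, dotted lines mark 2-fold, and for all loci the median alone is drawn. Medians ran from -1.18 for suberin to 1.03 for iron storage, and the points of RBCS1A (3.24) and LHCA2 (-1.72) depend on the 0.5 added to libraries at 0 counts.

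Ribosomal RNA and organelle loci stood out among the higher differences. All 4 nuclear ribosomal RNA loci compared, 19 of 26 mitochondrial and 11 of 30 plastid loci had higher differences past the rule, and 0 had lower ones. Together they were 34 of the 429 loci, and their median differences were 3.03, 1.96 and 1.07. They were set apart by locus name or annotated RNA type alone. AT2G01008 (2.88), AT2G01021 (4.28) and AT3G41762 (2.74), next to ribosomal RNA loci, were also higher but stayed among the other loci. So did AT2G07671 (5.48), AT2G07783 (3.17), AT2G07687 (2.07), AT2G07811 (2.28) and AT2G07698 (1.06), which follow each other on chromosome 2. The 18S locus AT3G41768 had 17290 and 15109 counts at high and low phosphate in Col-0 and 13872 and 168672 in med16-2, a difference of 4.73 (4.69 to 4.77) with med16-2 at low phosphate by far the highest library. The near-identical AT2G01010 can share its reads. Mitochondrial loci together took 0.501 and 1.25% of gene counts at high and low phosphate in Col-0 and 0.231 and 1.03% in med16-2. By that summed share med16-2 at high phosphate was the lowest library and Col-0 at low phosphate the highest. Taken locus by locus, their median log2 ratio of med16-2 over Col-0 was -1.29 at high and 0.82 at low phosphate. Without the organelle and ribosomal RNA loci so defined, and with libraries scaled anew, 393 loci had a higher and 417 a lower difference. Whether the high share of alignments that were not unique in the med16-2 low phosphate library bears on nuclear loci was not tested.

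Of the 15 largest higher differences at a mean CPM of 5 or more, 6 were such loci (AT3G41768, AT2G01020, AT3G41979, ATMG01080, ATMG00160 and ATMG01360). The unnamed locus AT1G15405, an RNA in the annotation, had 38 and 21 in Col-0 and 16 and 223 in med16-2, and AT4G06477 had 63 and 20 in Col-0 and 40 and 283 in med16-2. Together with AT2G01021 (4.28) and AT2G01008 (2.88) they were, like the 18S locus, far highest in med16-2 at low phosphate. AT2G01008 and AT2G01021 lie on chromosome 2 on either side of the ribosomal RNA loci AT2G01010 and AT2G01020. Among genes with an annotated product, AT2G41810 (a DUF642 protein) had 336 and 222 in Col-0 and 251 and 822 in med16-2, 9.41-fold (7.55 to 11.7) larger. AT3G49160 of the pyruvate kinase family had 97 and 259 in Col-0 and 17 and 138 in med16-2, 5.66-fold (3.27 to 9.79) larger. AT2G23910, a Rossmann-fold protein gene, had 887 and 282 in Col-0 and 171 and 149 in med16-2, 5.21-fold (4.03 to 6.73) larger, lower at low phosphate in Col-0 alone. The others were UGT84A1 and AT2G35750 (2.42).

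In 40 loci the phosphate ratios met the size rule in opposite directions. In 25 the level was higher at low phosphate in Col-0 and lower in med16-2, and in 15 the reverse. The 6 with the largest differences had 21 counts or fewer in at least 2 libraries. GAD4 (AT2G02010), a glutamate decarboxylase gene, had 7 and 190 counts at high and low phosphate in Col-0 and 39 and 7 in med16-2, a ratio 70.3-fold smaller in med16-2 (24.2 to 205). The transcription factor gene AT5G61890 had 7 and 76 in Col-0 and 19 and 1 in med16-2, and the cytochrome P450 gene CYP706A1, whose reads a near-identical neighbour can share, had 8 and 72 in Col-0 and 16 and 1 in med16-2. TLL1, a lipase-like gene, had 3 and 67 in Col-0 and 6 and 0 in med16-2, and with the library at 0 set to 3 counts its ratio was 23.5-fold smaller in med16-2. Its high phosphate libraries hold few counts too, and the 95% interval of its difference ran from -11.47 to -2.61. These 4 peaked in Col-0 at low phosphate. U1.5, a small nuclear RNA gene with near-identical copies, had 12 and 2 in Col-0 and 5 and 37 in med16-2 and AT1G15405 was described above; both peaked in med16-2 at low phosphate. With the filter raised to a mean CPM of 5 the opposite loci numbered 2 and 7 in place of 25 and 15.

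The same differences can be read as a genotype effect that depends on phosphate. At high phosphate 133 loci were higher (0.712%) and 1186 lower (6.34%) in med16-2, and at low phosphate 195 (1.04%) and 1147 (6.14%). Of the 404 lower differences, 229 (56.7%) were lower in med16-2 at low phosphate alone, 28 were lower at both supplies, 44 were higher in med16-2 at high phosphate alone, 13 were higher at high and lower at low phosphate, and 90 met neither rule. CYP86A1, GSTF6 and LOX3 belonged to the first of these classes. Of the 429 higher differences, 192 (44.8%) were lower in med16-2 at high phosphate alone, as were FER1, RSL4 and CBF1. Another 72 were higher at low phosphate alone, 42 lower at both, 14 lower at high and higher at low phosphate, 1 higher at both, and 108 neither. UGT84A1, ELIP1 and AT4 were lower in med16-2 at both supplies.

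**Figure D5:**
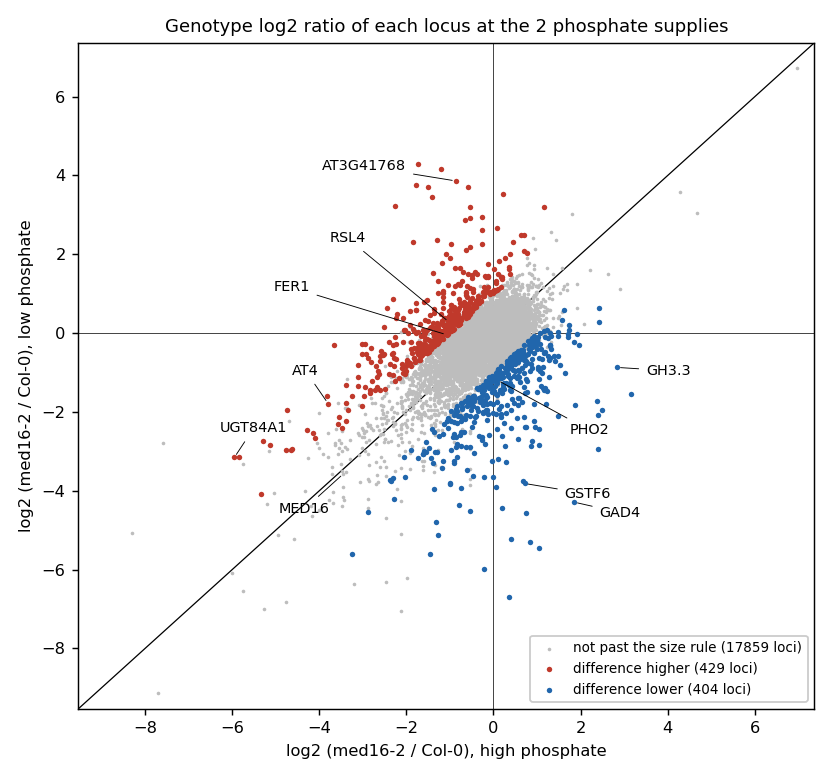
Each point is 1 of 18692 loci, with the log2 ratio of med16-2 over Col-0 at high phosphate on the x axis and at low phosphate on the y axis; the diagonal marks equal ratios and colours are as in the plot of phosphate ratios. MED16 lies near the diagonal at -3.44 and -3.57, FER1 and RSL4 are below 0 at high and near 0 at low phosphate, and GSTF6 is above 0 at high and at -3.81 at low phosphate.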

How the data were processed

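Root tip RNA, 5 µg in total per sample, went into TruSeq mRNA libraries that keep no strand, per the labels' protocols, 1 library for each of the 4 groups of genotype and phosphate. The authors deposited raw counts of reads per locus, with no normalization. Trimmomatic 0.35, TopHat2 2.0.9 and HTSeq 0.6.0 with TAIR10 are named in the submitters' processing notes; the sources used here give no settings. Lines that name no gene were left out. They held 12.5, 9.89, 10.1 and 42.1% of the counts listed for Col-0 at high and low and med16-2 at high and low phosphate. Gene counts were then 10079345, 15696333, 14266585 and 12302510. In these libraries 3 counts correspond to 0.298, 0.191, 0.210 and 0.244 CPM. Near-identical loci can lose counts as reads with several places are listed apart, and overlapping loci cannot be told apart without strand: 28.5% of loci compared overlap another.

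Libraries were scaled with edgeR 4.0.16 (trimmed mean of M values), and log2 ratios used counts plus 0.5 over the effective library size, for loci with a mean scaled CPM of at least 1. Intervals of a single ratio were exact (Clopper-Pearson), those of the difference normal with variance the sum of 1/(count + 0.5). All intervals are at 95%, cover counting error only and assume independent reads. The size rule asks for 2-fold and an interval excluding 0; a library at 0 counts was set to a floor of 3 counts for bounds. No p-value was computed. Calling was tested on simulated Poisson counts with known changes and no variation between libraries beyond counting error. That simulation cannot show how often unreplicated libraries give false calls. Python 3.11.15, pandas 2.3.3, scipy 1.17.1, R 4.3.3 and BLAST 2.17.0 (copies at 95% identity over 50% of a transcript) were used, with DESeq2 1.42.0 for alternative size factors. Gene names, products and sequences came from RefSeq TAIR10.1, matched by locus for 32835 of 33602.

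The 26 lists (338 genes), the comparisons and the members named were chosen with earlier results of these data known. Named were MED16, all members of the phosphate signalling, transport, scavenging, lipid and iron storage lists, up to 4 members with the largest absolute difference of each other list, the 15 largest differences each way with a mean of at least 5 CPM, and the 6 largest of opposite direction; other named genes (among them CYP86B1, JAZ10, WRKY70, MYB12, LHB1B2, LHCB3 and all in the closing section not named before) were chosen after their values were seen. Alternatives were other scalings, a pseudocount of 5, 2 other filters, thinning to the smallest library, leaving out organelle and ribosomal RNA loci, and a 4-fold rule.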

Additional observations from a re-analysis of the deposited data

Results flagged for a closer look

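Phosphate ratios of these loci ran in opposite directions in Col-0 and med16-2, each past the size rule; the difference between genotypes was not tested. The differences were 5.53 for AT1G15405, 5.37 for AT4G06477, 4.85 for the mitochondrial locus ATMG01080, 3.23 for AT2G41810, 2.42 for AT2G35750 and 6.02 for U1.5, all with higher levels at low phosphate in med16-2. They were -3.61 for the peroxidase gene AT5G39580, -2.86 for BCB, -7.04 for TLL1, -6.14 for GAD4, -6.12 for AT5G61890 and -5.62 for CYP706A1, with higher levels at low phosphate in Col-0. The value of TLL1 depends on the 0.5 added to its library at 0 counts, and with that library set to 3 counts the difference was -4.55.

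Outside the gene counts, 36.6% of the counts listed for med16-2 at low phosphate were of alignments that were not unique, against 6.65 to 9.27% in the other 3 libraries. Reads in no annotated gene were 4.43% of the listed counts there, against 1.21 to 1.41%.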

How the results depend on the processing

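Under the 9 alternatives the 429 higher and 404 lower differences became 357 and 500 with libraries scaled by total counts, 427 and 408 with DESeq2 size factors, 434 and 400 with upper quartile scaling, 500 and 464 without a filter, 393 and 417 without organelle and ribosomal RNA loci, and 426 and 408 after thinning, of which 336 and 324 were loci called before. With a pseudocount of 5 they were 388 and 246, with a mean of at least 5 CPM 205 and 164, and at 4-fold 75 and 107; the last 2 keep fewer loci by construction, and for the pseudocount the cause was not tested. Of 972 values of the 163 named genes under up to 6 alternatives each, 968 lay within the 95% interval of the value reported and 0 took the other sign after a call; the other 4, all with total counts, were AT3G41768, AT2G01021, ACT2 and UBQ10. Scaling by total counts shifts the median difference by -0.07, and no other scaling shifts the median by more than 0.01. Loci of opposite direction, 25 and 15, became 12 and 9 with a pseudocount of 5, 2 and 7 with a mean of at least 5 CPM, and 4 and 2 at 4-fold. List medians that changed sign are those named in the results, and that of nitrate and ammonium after thinning. No paired analysis was possible because each group has 1 library; for the same reason no replicate could be left out. In the lowest of 5 equal classes of mean CPM 6.42 and 6.74% of loci were higher and lower, and in the highest 0.749 and 0.16%; the part of depth in this was not tested.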

Other observations

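3 further lists and 30 families were drawn up after the values had been seen, and their counts describe these libraries without supporting a direction. In the aliphatic glucosinolate list, whose products are sulfur-rich defence compounds, 7 of 15 measured members had a lower and 0 a higher difference. Over all loci compared these shares were 2.16 and 2.3%. All 15 members lay below 0, with a median of -1.15. The median phosphate log2 ratio was 1.46 in Col-0 and 0.23 in med16-2. MAM1 (AT5G23010), which elongates the methionine side chain, had 7 and 138 counts at high and low phosphate in Col-0 and 5 and 7 in med16-2, a difference of -2.83 (-4.74 to -0.92). CYP79F2 (AT1G16400), a cytochrome P450 of core synthesis, had 66 and 333 in Col-0 and 84 and 63 in med16-2, a difference of -1.81 (-2.41 to -1.21), and IMD1 (AT5G14200), of chain elongation, had 258 and 1154 in Col-0 and 247 and 245 in med16-2, a difference of -1.24 (-1.56 to -0.92). All 3 were highest in Col-0 at low phosphate. MYB28, the regulator of the pathway, had 120 and 387 in Col-0 and 126 and 198 in med16-2 and a difference of -0.11 (-0.54 to 0.33), which did not pass the rule.

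Of 12 jasmonate synthesis genes 3 were lower and 0 higher (median -0.31, all 12 below 0). Of 12 genes for JAZ repressors 5 were lower and 0 higher (median -0.63). Among all loci compared 2.16% were lower and 2.3% higher. AOC1 (AT3G25760), an allene oxide cyclase gene, had 15 and 89 counts at high and low phosphate in Col-0 and 22 and 5 in med16-2, a difference of -3.63 (-5.19 to -2.08). AOC2 had 86 and 323 in Col-0 and 112 and 98 in med16-2, a difference of -1.17 (-1.69 to -0.65). JAZ5 had 48 and 165 in Col-0 and 63 and 36 in med16-2 and JAZ9 260 and 361 in Col-0 and 192 and 59 in med16-2, with differences of -1.64 (-2.39 to -0.90) and -1.24 (-1.72 to -0.76), whereas JAZ1 was at 0.24 (0.14 to 0.35). These lists share members with the defence list, among them LOX3, AOS, JAZ1 and JAZ10.

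Among families by RefSeq product, 7 of 39 glutathione S-transferase genes (17.9%) and 14 of 114 cytochrome P450 genes (12.3%) had a lower difference, against 2.16% of all loci compared, and 1 and 3 a higher one, with family medians of -0.11 and -0.07. Of 23 xyloglucan endotransglucosylase genes, enzymes of wall loosening, 5 (21.7%) were higher and 0 lower, against 2.3% of all loci, while the family median was -0.04, of the opposite sign. Of 22 aquaporin genes 3 (13.6%) were higher and 0 lower, with a median of 0.21. For the 312 ribosomal protein genes these were 2 and 0, with a median of 0.11, and for the 39 histone genes 0 and 0.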
